A study of Mus musculus with 8 samples.

Results

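The genes described here encode subunits of the transcription factor NF-κB and proteins that restrain or modulate it. They are 10 of the 23699 gene entries listed for each library, taken by name: the subunits Nfkb1, Nfkb2, Rela and Relb, the cytoplasmic inhibitors Nfkbia, Nfkbib and Nfkbie, the nuclear IκB proteins Nfkbiz and Bcl3, and the feedback inhibitor Tnfaip3. Each name matched 1 entry in every library. RNA was sequenced from mouse 3T3-L1 preadipocytes, a clonal fibroblast line that can form fat cells, collected 2 days after the cultures became confluent. In 4 libraries the cells had received a pool of 3 Stealth siRNAs (modified duplexes) against Fto, and in 4 libraries a pool of 3 non-targeting siRNAs, both at 40 nM with Lipofectamine 2000 for 24 hours while still sub-confluent. Cells of both groups were thus lipid-transfected, and an untransfected group was not analysed here. Fto encodes a dioxygenase that demethylates RNA, and the comparison asks how the NF-κB genes stand once its transcript is lowered.

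NF-κB works as pairs of subunits. The products of Nfkb1 and Nfkb2 are made as long precursors, p105 and p100, which carry their own inhibitory repeats and are trimmed to p50 and p52, while RelA and RelB bring the domain that activates transcription. In resting cells IκBα, IκBβ and IκBε, the products of Nfkbia, Nfkbib and Nfkbie, hold the pairs in the cytoplasm until the IKK kinase marks them for destruction. Many of these genes are themselves switched on by NF-κB, which makes their transcripts part of feedback loops, and in fat tissue the pathway is known for driving chemokine and cytokine expression.

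The libraries held about 18900000 to 21800000 fragments with Fto siRNA and 20500000 to 24400000 with control siRNA, worked out from the width of the deposited intervals. Fto itself stood at 13.8, 10.7, 12.3 and 11.6 FPKM (fragments per kilobase of transcript, scaled to the size of the library) with Fto siRNA, against 54.6, 55.4, 56.2 and 55.2 FPKM with control siRNA, a mean 78.1% below the control (log2 fold change -2.15, limma adjusted p = 7.3e-08; exact two-sided permutation p = 0.0286, the smallest that 70 arrangements allow). Of the markers of the labelled cell type, 9 of 10 preadipocyte and fibroblast genes had a mean of at least 1 FPKM, with summed levels of 9150 to 10075 FPKM with Fto siRNA and 8488 to 8906 FPKM in controls. These 9 split: Ly6a, Thy1, Fbn1, Col1a1 and Col1a2 rose, Pdgfra and Pdgfrb fell, and 2 did not pass. The 9 macrophage and leukocyte markers summed to 13.1 to 14.4 FPKM with Fto siRNA and 15.8 to 21.9 FPKM in controls, most of it Lyz2 (which fell, 11.6 against 16.7 FPKM in controls, limma adjusted p = 0.0032), with Adgre1 and Cd3e listed at 0. Endothelial and epithelial markers summed to under 1 FPKM in each library. The 8 mature adipocyte markers summed to 54.2 to 65.9 FPKM with Fto siRNA and 51.6 to 83.3 FPKM in controls, most of it Fabp4. Control library 3 stood apart in several of the genes below. In bulk RNA, fewer cells that express a gene and less RNA per cell cannot be told apart.

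All 10 genes were expressed in these preadipocytes, and most differed little between the groups. A gene was tested where its mean over the 8 libraries was at least 1 FPKM, which all 10 passed. The test was limma on log2(FPKM + 0.5), adjusted by Benjamini-Hochberg over 11398 tested genes, and a gene is said to rise or fall where the adjusted p was under 0.05. Of the 10, Nfkbia rose, Nfkb1 fell, and 8 did not pass. Across all tested genes 19.3% were called, 6.97% higher and 12.3% lower, so 2 of 10 is the share found among genes at large. The median log2 fold change of the 10 was 0.06, beside -0.02 over all tested genes, and their fold changes lay between -0.17 and 0.19. At an unadjusted p under 0.05 stood 4 of the 10 genes, against 32.4% of all tested genes.

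**Figure D1:**
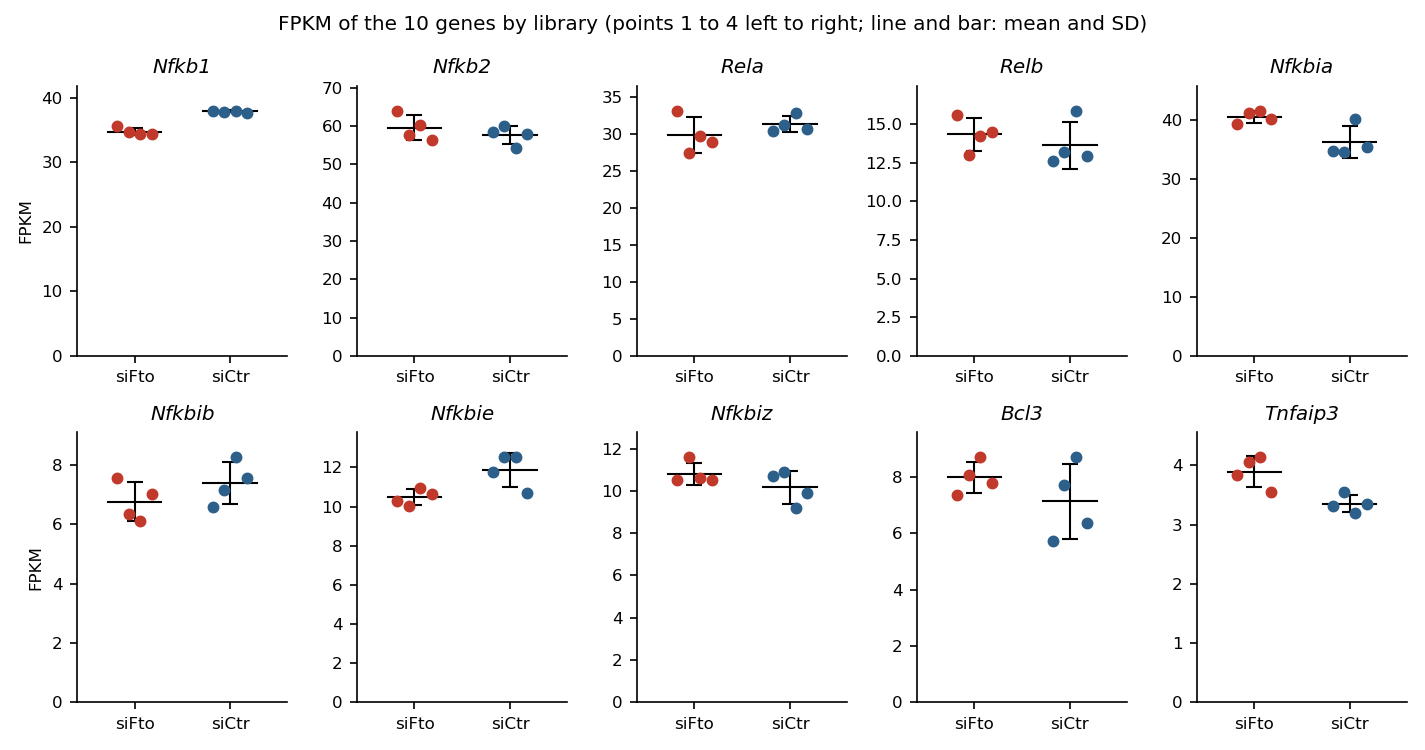
FPKM (vertical axes, starting at 0) of the 10 genes in 4 Fto siRNA libraries (siFto, red) and 4 control siRNA libraries (siCtr, blue), with lines and bars for mean and SD. The groups are separate for Nfkb1, lower with Fto siRNA, and for Tnfaip3, higher with Fto siRNA, and overlap in the other 8 panels.

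On the length-scaled FPKM level, Nfkb2 was the most abundant of the 10 and Tnfaip3 the least. Nfkb2 averaged 59.6 ± 3.39 FPKM with Fto siRNA and 57.7 ± 2.38 FPKM with control siRNA (SD, n = 4 each, as for all means below), above 86.7% of tested genes. Nfkbia, Nfkb1 and Rela followed at 40.6, 34.8 and 29.8 FPKM with Fto siRNA, against 36.3, 37.9 and 31.3 FPKM in controls. Nfkbia and Nfkb1 changed places between the groups: their ranges were separate with Fto siRNA, where Nfkbia was the higher, and overlapped in controls. Below them came Relb, then Nfkbie and Nfkbiz, which overlapped each other in both groups, then Bcl3 and Nfkbib, which also overlapped in both groups. All other neighbours in this order were separate in both groups. Tnfaip3, at 3.90 ± 0.261 FPKM with Fto siRNA and 3.35 ± 0.144 FPKM in controls, lay above 13.9% of tested genes.

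Among the subunits only Nfkb1 passed the test, and it fell by a small amount that every library showed. Nfkb1, which encodes p105 and its product p50, lies on mm9 chromosome 3, 135247619 to 135354511. It stood at 35.58, 34.78, 34.37 and 34.41 FPKM with Fto siRNA, against 38.004, 37.87, 38.04 and 37.71 FPKM with control siRNA. All 4 Fto siRNA libraries lay below all 4 controls, as was the case for 15.1% of tested genes. The mean was 8.24% lower with Fto siRNA (log2 fold change -0.12, SE 0.029, 95% interval -0.19 to -0.06, limma adjusted p = 0.0154). The fall rests on a tight spread: the standard deviation was 1.62% of the mean with Fto siRNA and 0.40% with control siRNA. The deposited intervals of single libraries reached 3.34 to 3.98% to either side, a width taken as 2 standard deviations of a count. On a common scale the Fto siRNA spread was therefore close to counting error, and only the control spread lay well below it. The reason for the tight controls was not tested.

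The other NF-κB precursor gene, Nfkb2, did not fall with it. Nfkb2, which encodes p100 and p52 of the non-canonical branch, lies on mm9 chromosome 19, 46379227 to 46386580, and its locus overlaps that of Psd, so reads shared by these genes cannot be told apart. Nfkb2 stood at 64.1, 57.7, 60.4 and 56.4 FPKM with Fto siRNA, against 58.4, 60.0, 54.4 and 58.1 FPKM with control siRNA, and the groups overlapped (log2 fold change 0.05, 95% interval -0.06 to 0.15, limma adjusted p = 0.535). Within each library the ratio of Nfkb2 to Nfkb1 FPKM was 1.80, 1.66, 1.76 and 1.64 with Fto siRNA, against 1.54, 1.58, 1.43 and 1.54 with control siRNA. These ratios did not overlap. The pair was chosen after its values were seen, so the ratio is given with no test.

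Rela and Relb, the subunits with a transactivation domain, had overlapping groups. Rela (mm9 chromosome 19, 5637490 to 5648130), the main activating partner of p50, stood at 33.2, 27.5, 29.7 and 29.0 FPKM with Fto siRNA, against 30.4, 31.3, 32.9 and 30.8 FPKM with control siRNA. In Rela, 3 of the 4 Fto siRNA libraries lay below every control, and Fto siRNA library 1 lay above every control (log2 fold change -0.07, 95% interval -0.19 to 0.05, limma adjusted p = 0.401). Relb (mm9 chromosome 7, 20191571 to 20214787), the partner of p52, stood at 15.5, 13.0, 14.2 and 14.5 FPKM with Fto siRNA, against 12.6, 13.2, 15.9 and 12.9 FPKM with control siRNA. Control library 3 held the highest Relb level of all 8 libraries, and the 3 other controls lay at the low end (log2 fold change 0.07, 95% interval -0.10 to 0.24, adjusted p = 0.555).

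**Figure D2:**
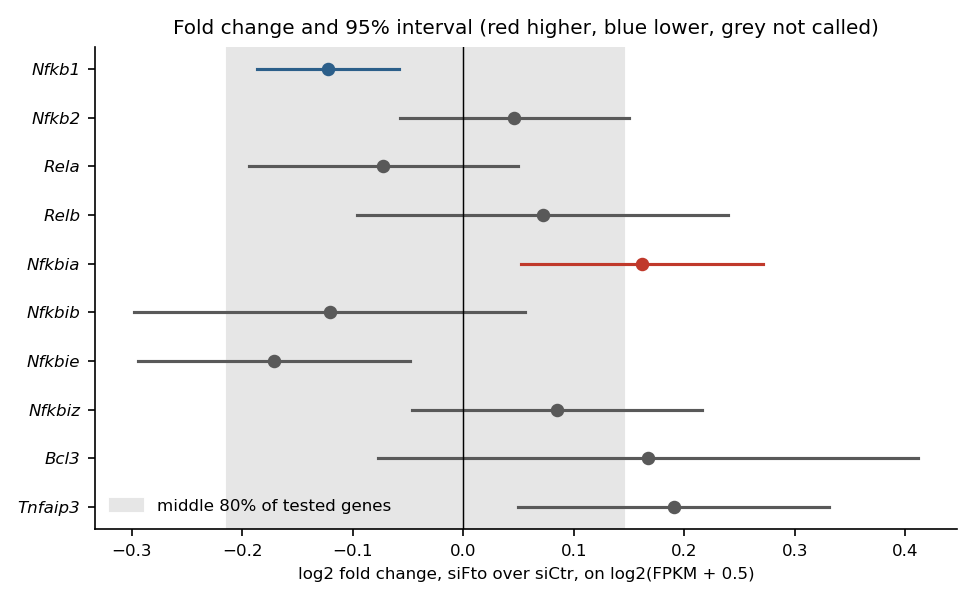
Log2 fold change of Fto siRNA over control siRNA for each gene (points, on log2(FPKM + 0.5)) with its 95% interval, where the grey band spans the middle 80% of tested genes. The intervals of Nfkb1 (blue, fell), Nfkbia (red, rose), Nfkbie and Tnfaip3 do not reach 0, and the intervals of the other 6 genes do.

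The 3 cytoplasmic inhibitors did not move together, and only Nfkbia passed the test. Nfkbia, the gene of IκBα and a rapid NF-κB target, lies on mm9 chromosome 12, 56590396 to 56593634. It stood at 39.4, 41.2, 41.7 and 40.3 FPKM with Fto siRNA, against 34.8, 34.7, 40.3 and 35.5 FPKM with control siRNA. The 4 Fto siRNA libraries lay together, while control library 3 lay among them, 40.276 FPKM against the 40.266 FPKM of Fto siRNA library 4. The mean was 11.9% higher with Fto siRNA (log2 fold change 0.16, SE 0.049, 95% interval 0.05 to 0.27, limma adjusted p = 0.044). The call is close to the threshold: it was lost when any Fto siRNA library or control library 1, 2 or 4 was left out (adjusted p 0.0618 to 0.121), and without control library 3 the log2 fold change was 0.21 (adjusted p = 0.0023). It was also lost with no filter on low values (adjusted p = 0.0826) and with no trend in the prior variance (0.0648).

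Nfkbie and Nfkbib, the other 2 IκB genes of the cytoplasm, had lower means with Fto siRNA and did not pass. Nfkbie, the gene of IκBε (mm9 chromosome 17, 45692665 to 45700117), stood at 10.3, 10.01, 10.96 and 10.6 FPKM with Fto siRNA, against 11.8, 12.5, 12.5 and 10.7 FPKM with control siRNA. Its groups overlapped through control library 4, the lowest control (log2 fold change -0.17, 95% interval -0.29 to -0.05, limma adjusted p = 0.0555). Without that library the adjusted p was 0.0193, while in the other 15 of 16 alternatives Nfkbie did not pass (up to 0.1485). Nfkbib, the gene of IκBβ (mm9 chromosome 7, 29543270 to 29551543, overlapping the entry Gm6537), stood at 7.55, 6.37, 6.11 and 7.04 FPKM with Fto siRNA, against 6.59, 7.17, 8.27 and 7.57 FPKM with control siRNA. Its groups overlapped widely (log2 fold change -0.12, 95% interval -0.30 to 0.06, adjusted p = 0.329). The means differed by 8.58%, and Nfkbib rested on 199 to 302 fragments per library.

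Nfkbia made up 68.8, 71.5, 70.9 and 69.5% of the summed FPKM of Nfkbia, Nfkbib and Nfkbie with Fto siRNA, against 65.5, 63.8, 66.0 and 66.0% with control siRNA, and the groups did not overlap. The sum itself was 57.9 ± 0.646 FPKM with Fto siRNA and 55.6 ± 3.68 FPKM with control siRNA. All 6 non-subunit genes were also set against the 4 subunits, though the nuclear IκB proteins among them do not act as cytoplasmic inhibitors. The summed FPKM of the 6 per FPKM of the subunits was 0.532, 0.611, 0.592 and 0.594 with Fto siRNA, against 0.523, 0.538, 0.582 and 0.526 with control siRNA. Of the Fto siRNA libraries 3 lay above all controls, and Fto siRNA library 1 lay below controls 2 and 3. The ratio of Nfkbia to Rela was 1.19, 1.499, 1.40 and 1.39 with Fto siRNA, against 1.14, 1.11, 1.22 and 1.153 with control siRNA, overlapping again through Fto siRNA library 1. The share of Nfkbia and its ratio to Rela were chosen after their values were seen, and these sums and ratios carry no test.

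**Figure D3:**
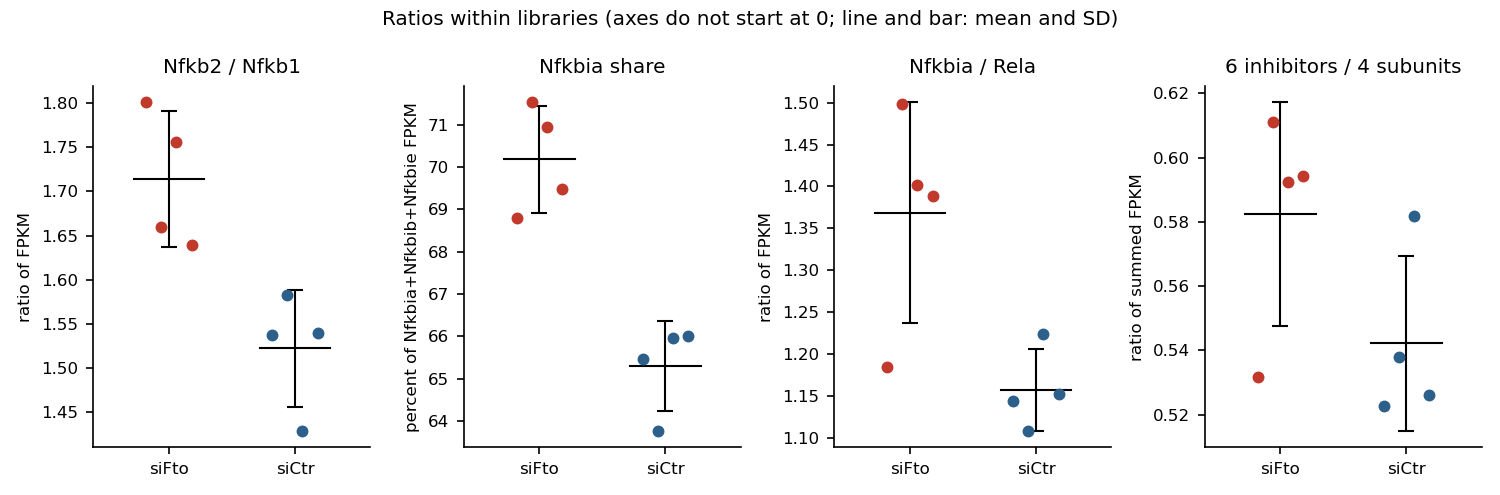
Ratios within each library for Fto siRNA (siFto, red) and control siRNA (siCtr, blue), with lines and bars for mean and SD on axes that do not start at 0. The groups are separate for Nfkb2 over Nfkb1 and for the share of Nfkbia among the 3 cytoplasmic inhibitors. They overlap for Nfkbia over Rela and for the 6 non-subunit genes, titled inhibitors, over the 4 subunits.

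Tnfaip3 had the largest fold change of the 10, yet did not pass. Tnfaip3 encodes A20, a ubiquitin-editing enzyme that shuts off signalling from TNF and Toll-like receptors, and lies on mm9 chromosome 10, 18720717 to 18735216. It stood at 3.84, 4.05, 4.14 and 3.56 FPKM with Fto siRNA, against 3.31, 3.55, 3.20 and 3.35 FPKM with control siRNA. All 4 Fto siRNA libraries lay above all 4 controls, as for 9.08% of tested genes, though Fto siRNA library 4 cleared control library 2 by 0.01 FPKM (3.556 against 3.546). The mean was 16.3% higher with Fto siRNA (log2 fold change 0.19, SE 0.063, 95% interval 0.05 to 0.33, limma adjusted p = 0.0609). The adjusted p fell under the threshold in 4 of 15 alternatives. These were leaving out Fto siRNA library 4 (0.0415), median-ratio scaling (0.04997), quantile normalization (0.0191) and no trend in the prior variance (0.0329). In the other 11 Tnfaip3 did not pass, with an adjusted p of up to 0.1401.

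The nuclear IκB proteins, which act on p50 and p52 at promoters instead of holding NF-κB in the cytoplasm, did not pass. Bcl3 (mm9 chromosome 7, 20393811 to 20408104) stood at 7.38, 8.06, 8.71 and 7.80 FPKM with Fto siRNA, against 5.73, 7.73, 8.71 and 6.37 FPKM with control siRNA. Its controls were the most scattered of any group among the 10 genes, with a standard deviation of 18.8% of the mean, and spanned the Fto siRNA libraries but for a margin of 0.005 FPKM between Fto siRNA library 3 and control library 3 (8.715 against 8.710; log2 fold change 0.17, 95% interval -0.08 to 0.41, limma adjusted p = 0.328). Nfkbiz, the gene of IκBζ, a co-activator of secondary response genes (mm9 chromosome 16, 55811490 to 55838754), stood at 10.5, 11.6, 10.6 and 10.5 FPKM with Fto siRNA, against 10.7, 10.9, 9.17 and 9.90 FPKM with control siRNA. Fto siRNA library 2 was the high one, and the other 3 lay inside the control range (log2 fold change 0.08, 95% interval -0.05 to 0.22, adjusted p = 0.358).

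Within a group the 10 genes did not vary as 1 block. Control library 3 was the highest control for 6 genes (Nfkb1, Rela, Relb, Nfkbia, Nfkbib and Bcl3) and the lowest for 3 (Nfkb2, Nfkbiz and Tnfaip3). Fto siRNA library 1 was the highest of its group for all 4 subunits and for Nfkbib, and the lowest for Nfkbia and Bcl3. The median standard deviation was 6.18% of the mean for the 10 genes with Fto siRNA and 7.30% with control siRNA, beside 5.07% and 5.49% over all tested genes.

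**Figure D4:**
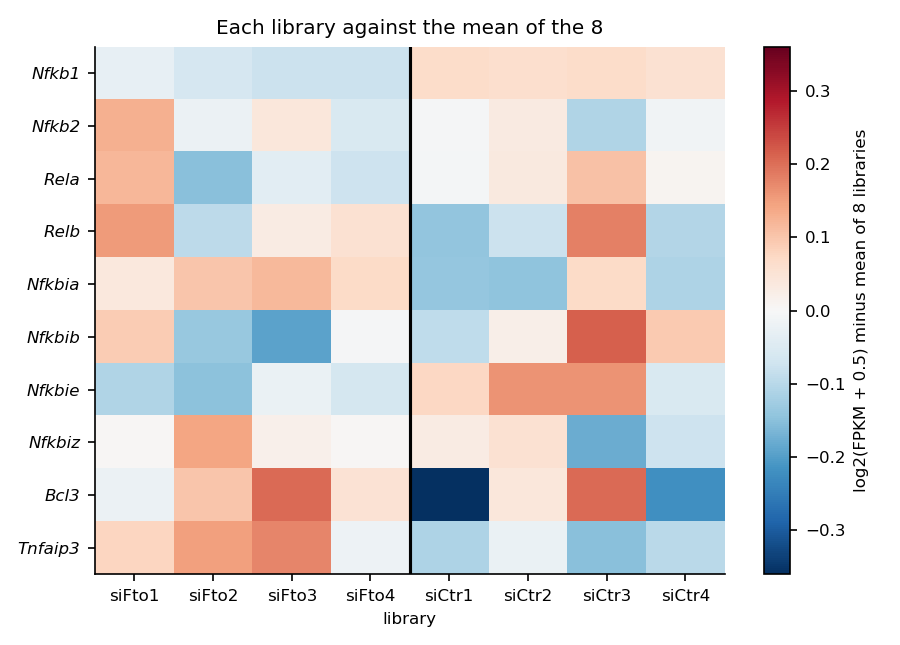
Each gene (rows) in each library (columns, siFto left of the line and siCtr right of it) as log2(FPKM + 0.5) minus its mean over the 8 libraries, red above and blue below. Nfkb1 is blue in all 4 siFto libraries and red in all 4 siCtr libraries, while siCtr3 is red in Relb and Nfkbia, where the other 3 controls are blue.

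Several of these genes share a type of word in their promoter sequence. NF-κB pairs bind the κB consensus, a near-palindrome of 10 bases, which was searched on both strands in the 300 bases around each annotated start site (250 before and 50 after, RefSeq, GRCm38.p6). Windows were found for 7 of the 10 genes, and 5 of them held at least 1 match: Nfkb2, Nfkbia, Nfkbie, Tnfaip3 and Bcl3. Of 8082 tested genes with a window, 12.5% held a match, and of all 32851 windows 8.46%. A match is a description of the letters, and binding was not measured here. Nfkbia, Nfkb2 and Tnfaip3 are shown because they are the riser, the most abundant of the 10 and the gene with the largest fold change. The sequences run 5′ to 3′ along the gene's strand, with matches in capitals.
Nfkbia, chr12:55492598-55492897, minus strand: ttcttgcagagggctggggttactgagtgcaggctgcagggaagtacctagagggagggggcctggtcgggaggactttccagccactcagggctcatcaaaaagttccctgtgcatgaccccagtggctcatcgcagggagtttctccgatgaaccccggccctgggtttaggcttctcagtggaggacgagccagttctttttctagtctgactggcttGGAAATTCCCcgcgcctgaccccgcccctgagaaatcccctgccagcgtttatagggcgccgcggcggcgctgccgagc
Nfkb2, chr19:46304487-46304786, plus strand: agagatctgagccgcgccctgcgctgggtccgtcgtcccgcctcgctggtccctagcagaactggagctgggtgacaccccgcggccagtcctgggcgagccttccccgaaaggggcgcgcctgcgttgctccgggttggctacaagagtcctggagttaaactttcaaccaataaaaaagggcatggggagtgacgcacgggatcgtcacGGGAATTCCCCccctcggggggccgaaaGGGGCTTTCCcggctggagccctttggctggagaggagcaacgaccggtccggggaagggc
Tnfaip3, chr10:19015361-19015660, minus strand: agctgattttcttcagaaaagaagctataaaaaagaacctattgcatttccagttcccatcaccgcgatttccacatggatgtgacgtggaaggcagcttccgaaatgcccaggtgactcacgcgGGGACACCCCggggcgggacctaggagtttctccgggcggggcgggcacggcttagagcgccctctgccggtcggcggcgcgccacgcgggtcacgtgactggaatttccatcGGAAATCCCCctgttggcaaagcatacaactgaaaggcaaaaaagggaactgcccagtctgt

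In Nfkbia the match GGAAATTCCC begins 29 bases before the start site and lies on the opposite strand. Nfkb2 held 3 matches in the window shown, of which GGGAATTCCC and GGAATTCCCC overlap by all but 1 base, at 39 and 38 bases before the start site. Tnfaip3 held GGGACACCCC, 125 bases before its start site, and GGAAATCCCC, 12 bases before it. The match in Nfkbie was GGGGGATTCC, 106 bases upstream, and that in Bcl3 was GGGAAGTCCC, 2 bases past the start. Rela and Nfkbib held no match in their windows, which says only that these letters are not there. Among the 5 genes with a match the mean FPKM was higher with Fto siRNA in Nfkbia, Tnfaip3, Bcl3 and Nfkb2 and lower in Nfkbie, and of these only Nfkbia passed the test. Over all tested genes 5097 log2 fold changes were positive and 6301 negative. The direction among all genes with a match was not examined, and a link between matches and direction was not tested.

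None of the 10 genes carries a pair of 3′ UTR words that were more frequent among fallen genes in these libraries. The 7-base words GACCTTA and ACCTTAA were picked in earlier work on the same data because genes that hold them tended to be lower with Fto siRNA. In the longest annotated 3′ UTR per gene (GENCODE M21, 50 bases or more), they occurred in 26.2% of 1233 fallen genes, 8.35% of 707 risen genes and 11.3% of 7848 genes that did not pass. They occurred in 0 of 10 NF-κB genes, against 12.9% of all 9788 genes searched, where the median UTR was 707 bases for the 10 genes and 1190 bases for all. Nfkb1, which fell, holds neither word in its 700-base 3′ UTR.

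Beyond the 10 genes, 103 of 133 other genes of the pathway, listed by role, passed the filter on low values, and 27 of these were called: 4 rose and 23 fell. That is 26.2% called, beside 19.3% of all tested genes, with a median log2 fold change of -0.05 beside -0.02. The role lists were chosen with earlier results of these data known, so their shares are described only and no excess over all genes is claimed. The falls numbered 13 to 15 when Fto siRNA library 1, 2 or 3 or control library 2 or 4 was left out, 16 without Fto siRNA library 4 or control library 1, and 21 without control library 3. Over all tested genes the falls also dropped, from 1401 to between 992 and 1190, when any library but control library 3 was left out. Without control library 3 they numbered 1432. These are the background for the counts with 1 library left out in each list below. Most ligands of the pathway were scarce in these cells. Tnf was listed at 0 in 6 of 8 libraries and Il1b in 7 of 8. Tnf stood at 0.0657 FPKM in Fto siRNA library 4 and 0.0309 FPKM in control library 4, and Il1b at 0.0389 FPKM in control library 4. In all, 10 of 13 ligand genes lay below the filter. Il33, an alarmin of stromal cells, fell to 1.27 ± 0.239 FPKM with Fto siRNA, against 2.37 ± 0.545 FPKM with control siRNA (log2 fold change -0.68, limma adjusted p = 0.0101), while Il18 and Tnfsf12 did not pass. Il18 averaged 6.06 FPKM with Fto siRNA and 6.41 FPKM in controls, and Tnfsf12, the gene of TWEAK, 27.5 FPKM with Fto siRNA and 29.5 FPKM in controls.

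The TNF receptor genes did not pass, and 2 Toll-like receptor genes and the IL-33 receptor gene fell. Tnfrsf1a, the main TNF receptor gene, averaged 91.9 ± 1.20 FPKM with Fto siRNA and 93.8 ± 4.47 FPKM with control siRNA (log2 fold change -0.03, 95% interval -0.11 to 0.06, limma adjusted p = 0.651). Tnfrsf1b, the other TNF receptor gene, averaged 6.95 ± 0.412 FPKM with Fto siRNA and 7.82 ± 0.324 FPKM with control siRNA, with separate groups (adjusted p = 0.0612). Ltbr, the lymphotoxin receptor that feeds the Relb branch, averaged 62.9 ± 2.69 FPKM with Fto siRNA and 62.4 ± 4.31 FPKM with control siRNA (0.01, 95% interval -0.10 to 0.13, adjusted p = 0.875). Tlr4, the endotoxin receptor gene, fell to 4.53 ± 0.206 FPKM, against 6.37 ± 0.967 FPKM in controls (-0.44, adjusted p = 0.0099). Tlr3, for double-stranded RNA, and Il1rl1, the IL-33 receptor, fell by 0.25 and 0.31 on the log2 scale (adjusted p = 0.0302 and 0.0391). Of 15 tested receptors 3 fell and 0 rose, so 20% were called, beside 19.3% of all tested genes. Receptor falls numbered 1 without Fto siRNA library 4 or control library 1 or 4. Of the macrophage and leukocyte markers Lyz2 also fell, as given above, while Csf1r averaged 0.933 FPKM with Fto siRNA and 0.672 FPKM in controls, Cd68 1.20 FPKM with Fto siRNA and 0.974 FPKM in controls, and Ptprc 0.0024 FPKM with Fto siRNA and 0.0022 FPKM in controls. Their part in the falls was not tested.

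In the kinase and adaptor tiers 7.14% and 15% of the tested genes were called, beside 19.3% of all tested genes. Of 14 tested IKK and upstream kinases and their scaffolds 1 fell, Tank, a scaffold that binds TRAF proteins and the IKK-related kinases, at 44.6 ± 1.27 FPKM with Fto siRNA and 50.7 ± 1.42 FPKM with control siRNA (log2 fold change -0.18, limma adjusted p = 0.0054). Chuk, the gene of IKKα, stood at 31.9 ± 0.775 FPKM with Fto siRNA and 30.3 ± 0.721 FPKM in controls, with separate groups but an adjusted p of 0.144. Tab2, which links the kinase TAK1 to ubiquitin chains, stood at 33.4 ± 0.275 FPKM with Fto siRNA and 35.2 ± 1.12 FPKM in controls, also with separate groups (adjusted p = 0.135). Of 20 tested adaptors and ubiquitin ligases 3 fell and 0 rose. Irak4, the kinase next to Toll-like and IL-1 receptors, fell by 0.23 (adjusted p = 0.0125), and Irak2 and Ripk1 fell by 0.20 and 0.13 (adjusted p = 0.0443 and 0.0308). With median-ratio scaling 1 of the 3 was called, as without Fto siRNA library 1 or 4 or control library 1 or 2. Ube2v1 (log2 fold change -0.01) and Rbck1 (-0.07), the most abundant genes of the adaptor and ubiquitin ligase list, did not pass. Of the 6 tested relatives of the Rel and IκB family limma called 0, with 2 at an unadjusted p under 0.05, beside 32.4% of all tested genes. Nfkbil1 and Nkiras2 had log2 fold changes of -0.05 and 0.10. Rel, the gene of a further subunit, c-Rel, averaged 1.11 ± 0.332 FPKM with Fto siRNA and 1.20 ± 0.263 FPKM in controls (limma adjusted p = 0.764).

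**Figure D5:**
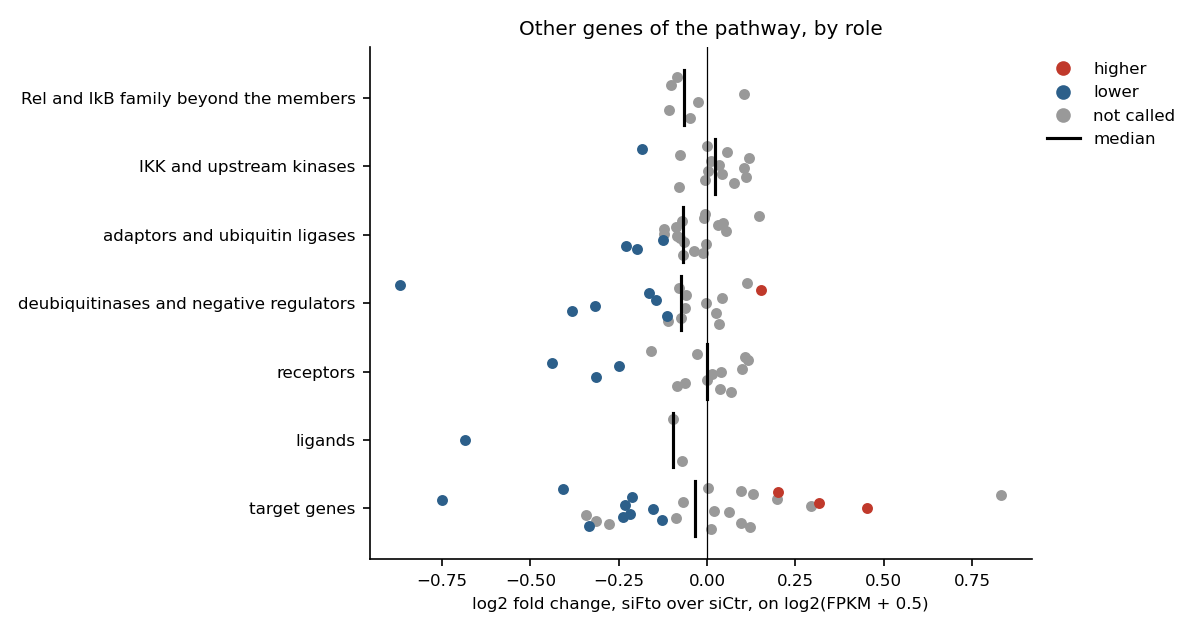
Log2 fold change of Fto siRNA over control siRNA (horizontal axis, on log2(FPKM + 0.5)) for 103 tested genes of the wider pathway in 7 role lists, where points are genes and black bars are list medians. Called falls (blue) lie in all lists but that of the Rel and IκB family, and called rises (red) in the negative regulators and the target genes.

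Of 17 tested deubiquitinases and negative regulators 6 fell and 1 rose (41.2%, beside 19.3% of all tested genes, median log2 fold change -0.07). This list, too, was chosen with earlier results of these data known. Otud7b, the gene of Cezanne, an A20-family deubiquitinase, fell to 7.33 ± 0.235 FPKM, against 9.71 ± 0.432 FPKM in controls (log2 fold change -0.38, limma adjusted p = 5.1e-04). Pdlim2, whose product promotes loss of nuclear RelA, fell to 82.9 ± 7.23 FPKM, against 103 ± 7.70 FPKM (-0.32, adjusted p = 0.0102). Usp18, placed in this list but best known as an interferon-induced gene, fell by 0.87 (adjusted p = 0.0166), with controls scattered from 3.81 to 9.30 FPKM. Itch and Rnf11, ligases that work with A20, fell by 0.11 and 0.14, and Tollip, a brake on IL-1 receptor signalling, rose by 0.15 (adjusted p = 0.0289). The falls numbered 3 without Fto siRNA library 1, 2 or 3 or control library 1 or 2, and 7 without control library 3. Tax1bp1 and Commd1, the most abundant that did not pass, had log2 fold changes of 0.04 and 0.03. The 3′ UTR of Otud7b, at 5161 bases far longer than the median of 1190, holds both 7-base words joined, as agccgtggctGACCTTAAtctgtggtta, where capitals mark them.

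Of 28 tested target genes of NF-κB 9 fell and 3 rose (42.9%, beside 19.3% of all tested genes, median log2 fold change -0.03), in a list chosen with earlier results of these data known. Another 10 lay below the filter, among them Il6, which averaged 0.572 FPKM with Fto siRNA and 0.373 FPKM in controls, and Icam1, at 0.134 FPKM with Fto siRNA and 0.0861 FPKM in controls. Ccl2, the monocyte chemokine, fell to 131 ± 10.6 FPKM with Fto siRNA, against 165 ± 5.21 FPKM with control siRNA (log2 fold change -0.33, limma adjusted p = 0.0026). Plau, the urokinase gene, fell to 4.09 ± 0.509 FPKM, against 7.19 ± 0.563 FPKM (-0.75, adjusted p = 3.6e-04), and the hyaluronan-binding Tnfaip6 and the stromelysin Mmp3 fell by 0.41 and 0.23. Mmp9, the gelatinase, rose to 19.8 ± 0.720 FPKM, against 15.8 ± 0.786 FPKM (0.32, adjusted p = 0.0012), and Steap4, a metalloreductase, rose by 0.20 (adjusted p = 0.0123). The abundant targets C3 and Vcam1 did not pass, at 592 and 184 FPKM with Fto siRNA, against 544 and 184 FPKM in controls (adjusted p = 0.111 and 0.977). The groups were separate for C3 and overlapped for Vcam1. The falls numbered 4 without Fto siRNA library 3 and 5 without Fto siRNA library 1 or control library 2 or 4. Of the 20 called genes named in these role lists, 13 were called whichever library was left out and 7 were not (Ripk1, Irak2, Rnf11, Tollip, Itch, Tlr3 and Il1rl1). Over all alternatives 12 kept their call, with Usp18 also lost when no filter on low values was used (adjusted p = 0.0579). Of the 17 that fell, 5 hold 1 or both of the 7-base words in the 3′ UTR (Otud7b, Itch, Ripk1, Tlr4 and Il1rl1) and 12 hold neither. Among all 1233 fallen genes searched 26.2% hold a word, so 5 of 17 is close to the share of fallen genes at large. The 3′ UTRs of Otud7b, Ripk1, Il1rl1, Itch and Tlr4 span 5161, 4365, 3246, 2389 and 1321 bases, beside a median of 1265 for fallen genes. Vcam1 holds a word and was not called, and the part of the words in the falls was not tested.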

How the data were processed

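RNA-seq values of 8 libraries were used as deposited FPKM with interval bounds, per the file headers; reads were processed with TopHat2 2.0.11 and Cufflinks 2.2.1 on mm9, per the submitters' processing notes, while annotation and strand setting were not found in the labels or headers. FPKM are shared among overlapping genes by a model and hold no counts, so no count test was run. Fragments per gene were worked out by taking interval bounds as 2 standard deviations of a count, which covers counting error only. Genes with a mean of at least 1 FPKM (11398 of 23699 entries) were tested with limma 3.58.1 (R 4.3.3), trend in the prior variance, on log2(FPKM + 0.5), which understates changes of low genes, two-sided, Benjamini-Hochberg threshold 0.05. The script was tested on simulated data. Nothing in the labels ties replicates to independent cultures, and p-values therefore reflect variation among these libraries that may be technical. Alternatives were pseudocounts of 0.1 and 1, no filter or a minimum of 5 FPKM, median-ratio and quantile scaling, a replicate block, no trend, and leaving out each library. The 10 genes, the role lists, the markers and the 7-base words were chosen with earlier results of these data known. Named were the 10 genes, Fto, and of each role list up to 6 called genes with the lowest p and up to 2 more with the highest mean. Tnf, Il1b, Il6, Icam1, Tnfrsf1b, Rel and the cell type markers were added after their values were seen. Loci are mm9, counted from 1; sequences are RefSeq or GENCODE M21 on GRCm38, used with Python 3.11.15.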

Additional observations from a re-analysis of the deposited data

Results flagged for a closer look

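Of the 98 groups of 4 libraries examined, 7 held a library whose gap to the nearest other exceeded Dixon's 95% limit as a share of the group's range, and chance flags about 1 in 20 groups. Among the NF-κB genes these were Nfkbia in control library 3, at 40.276 FPKM with the other controls at 34.7 to 35.5 FPKM, and Nfkbiz in Fto siRNA library 2, at 11.6 FPKM with the others at 10.5 to 10.6 FPKM. The ratio of the 3 cytoplasmic inhibitors to the 4 subunits was also high in control library 3, at 0.433 with the other controls at 0.381 to 0.385. In the role lists the libraries that stood out were Tax1bp1 in Fto siRNA library 1 (101 FPKM), Irak4 and Itch in control library 3 (5.68 and 27.7 FPKM) and Nkiras2 in control library 1 (16.5 FPKM).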

How the results depend on the processing

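Nfkb1 was called lower in 15 of 16 alternatives, with log2 fold changes of -0.13 to -0.10. The exception was the replicate block, with 0 NF-κB genes lower (Nfkb1 adjusted p = 0.0531). Equal replicate numbers did not pair the libraries (correlations of their deviations 0.07, -0.04, -0.19 and -0.09), so the libraries share only a number. Under the block 628 genes rose and 1133 fell, and 15 pathway genes fell. Nfkbia was called in 7 of 16 alternatives. The NF-κB genes called higher numbered 0 with no filter on low values, 2 with median-ratio scaling and 2 with quantile normalization (Nfkbia and Tnfaip3), and 0 to 1 when 1 library was left out. Those called lower numbered 1 to 2 when 1 library was left out. Pathway genes called lower numbered 14 with no filter and 13 to 21 with 1 library left out, and those called higher 7 with quantile normalization and 2 to 6 with 1 library left out. Over all tested genes, 1163 were called lower with no filter and 992 to 1432 with 1 library left out, against 1401. Those called higher numbered 1086 with quantile normalization and 549 to 941 with 1 library left out, against 794. The cause of these shifts was not tested. Risen genes made up 47.1% of all calls with median-ratio scaling and 47.4% with quantile normalization, against 36.2%. Changes of sign were seen only in genes not called: Ube2v1 (0.014 and 0.0040 with median-ratio and quantile scaling; -0.023 to 0.028 with 1 library left out), Vcam1 (-0.019 to 0.026), Ltbr (-0.014 to 0.060) and Nfkbil1 (-0.091 to 0.015). The difference in the summed ratio of the non-subunit genes to the subunits was 0.031 to 0.057 with 1 library left out, against 0.040. With the cytoplasmic inhibitors only, that difference was 0.023. The ratio of Nfkb2 to Nfkb1 differed by 0.16 to 0.22, against 0.19, and the share of Nfkbia by 4.38 to 5.35 percentage points, against 4.89 (alternatives added after seeing the data). Depth limits Bcl3, Nfkbib and Tnfaip3 most, at 194 to 357 fragments per library.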
